A study of Mus musculus with 39 samples.

Results

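Messenger RNA of 8 genes that encode structural proteins of the peripheral myelin sheath was followed gene by gene through sciatic nerve injury in mice: Mbp, Pmp22, Mag, Prx, Mal, Cnp, Cldn19 and Pllp. They were chosen by name and not by a cut on their values, though with earlier results of these data known. They were looked up by their Ensembl identifiers among the 55573 genes of the count tables. All 8 lay within the 18442 genes whose counts were high enough to test, and Pllp had the fewest reads of them. Every group held mice with the Leprfl/fl alleles on a C57BL/6 background. Leprfl/fl mice served as controls (Lepr-ctrl), and Leprfl/fl::Dhh-Cre mice (Lepr-cKO) carried in addition a Cre transgene under the desert hedgehog promoter, which is active in the Schwann cell lineage from embryonic life, so that exon 1 of the leptin receptor gene was lost in Schwann cells. The mice were between 2 and 4 months old, and both sexes were used. The sciatic nerve of 1 side was crushed, and the endoneurium of the distal injured nerve and of the healthy (contralateral) nerve was collected 2 or 4 weeks post crush (2 wpc, 4 wpc). At 2 wpc there were 5 healthy and 5 injured Lepr-ctrl nerves and 6 healthy and 5 injured Lepr-cKO nerves. At 4 wpc there were 5 healthy and 4 injured Lepr-ctrl nerves and 5 healthy and 4 injured Lepr-cKO nerves. The 39 libraries came from 22 mice, of which 17 gave both nerves, and the mice of 2 wpc and 4 wpc were different animals whose samples were named in different styles, so that time and cohort cannot be told apart.

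Myelin of peripheral nerve is a spiral of Schwann cell membrane around an axon, in which compact layers are held together by proteins such as myelin basic protein and peripheral myelin protein 22, while cytoplasm remains in the innermost and outermost layers, the paranodal loops and the incisures. After a crush the axon beyond the lesion degenerates, the Schwann cells that had wrapped it lower their myelin genes and enter a repair state, and they raise those genes again when they ensheath a regrown axon. The zinc finger factor EGR2 and the HMG-box factor SOX10 are the established activators of this gene programme in Schwann cells.

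The members fall into 2 groups by the place of their proteins, compact myelin and the parts that keep cytoplasm. Mbp (ENSMUSG00000041607, GRCm38 chromosome 18, 82475146 to 82585637, plus strand) encodes the basic protein that joins the cytoplasmic faces of compact myelin. Pmp22 (ENSMUSG00000018217, chromosome 11, 63128982 to 63159547, plus strand) encodes a tetraspan protein of compact myelin whose gene dosage underlies inherited neuropathies. Mal (ENSMUSG00000027375, chromosome 2, 127633226 to 127656695, minus strand) and Pllp (plasmolipin, ENSMUSG00000031775, chromosome 8, 94674894 to 94696278, minus strand) encode tetraspan proteolipids that associate with ordered, lipid-rich membrane.

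The other members belong to the parts of the sheath that keep cytoplasm. Mag (ENSMUSG00000036634, chromosome 7, 30899176 to 30914873, minus strand) encodes an adhesion protein of the innermost membrane, facing the axon. Prx (ENSMUSG00000053198, chromosome 7, 27499324 to 27520214, plus strand) encodes periaxin, a scaffold of the outermost membrane that binds the product of Drp2 and thereby the dystroglycan complex. Cnp (ENSMUSG00000006782, chromosome 11, 100574904 to 100591729, plus strand) encodes a phosphodiesterase of the cytoplasm-filled channels. Cldn19 (ENSMUSG00000066058, chromosome 4, 119255414 to 119262438, plus strand) encodes a claudin of the tight junctions between layers of the same Schwann cell. All values are those of a whole gene, since reads were summed over its exons and not assigned to isoforms.

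The promoters of 3 members are shown because their transcripts behaved differently from one another after injury: Prx was the most reduced member, Mag the least reduced at 2 wpc, and Cnp lay between them. Each window runs from 250 bases before to 50 bases after an annotated start (RefSeq, GRCm38.p6) and is written 5′ to 3′ on the strand of the gene, at chr7:27499074-27499373 (plus strand) for Prx, chr7:30914814-30915113 (minus strand) for the first of 3 windows of Mag, and chr11:100574689-100574988 (plus strand) for Cnp. Capitals mark a match to the short SOX motif ACAAAG or ACAATG on either strand.
Prx: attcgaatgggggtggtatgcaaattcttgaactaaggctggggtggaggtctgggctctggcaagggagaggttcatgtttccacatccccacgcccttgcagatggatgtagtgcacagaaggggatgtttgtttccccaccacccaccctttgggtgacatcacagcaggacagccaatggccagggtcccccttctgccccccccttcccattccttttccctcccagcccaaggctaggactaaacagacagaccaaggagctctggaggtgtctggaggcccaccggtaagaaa
Mag: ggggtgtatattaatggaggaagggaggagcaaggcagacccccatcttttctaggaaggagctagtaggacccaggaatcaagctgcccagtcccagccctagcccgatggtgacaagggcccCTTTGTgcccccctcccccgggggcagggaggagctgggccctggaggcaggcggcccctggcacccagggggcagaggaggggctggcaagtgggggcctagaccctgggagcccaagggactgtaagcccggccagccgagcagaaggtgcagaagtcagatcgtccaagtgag
Cnp: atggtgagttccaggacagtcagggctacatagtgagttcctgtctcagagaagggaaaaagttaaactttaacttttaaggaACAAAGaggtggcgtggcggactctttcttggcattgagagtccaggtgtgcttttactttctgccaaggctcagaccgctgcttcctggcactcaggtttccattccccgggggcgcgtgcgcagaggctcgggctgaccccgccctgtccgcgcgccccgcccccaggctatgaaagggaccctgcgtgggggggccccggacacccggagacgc
The printed Prx window held no match. The match in the Mag window stood at position -126 from the start, on the opposite strand, and that in the Cnp window at -167 on the strand of the gene. Mbp was left out of the search, and RefSeq listed 13 such windows for the other 7 of the 8 members. Of the 13, 3 (23.1%), from Mag and Cnp, held a SOX match, against 28.6% of all 32851 promoter windows. An EGR motif, GCGNGGGCG, was found in 0 of the 13 windows and in 5.55% of all windows, and TATAAA in 0 of the 13 and in 13.6% of all windows, with both strands searched. The first and second windows of Mag overlap and share their match, so that the 3 windows hold 2 distinct sites. The G and C content of the members' windows ran from 50.7% to 72.3%.

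Libraries held between 10905806 and 45016322 counted reads, and the shallowest were injured nerves of 4 wpc, all of which but that of mouse KO-169 (25923752) lay between 10905806 and 18153534. Levels are given as counts per 1000000 counts of a library (CPM), scaled by the trimmed mean of M-values (TMM). Fold changes come from edgeR's quasi-likelihood test on the counts of all 39 libraries, with p-values adjusted by Benjamini-Hochberg over 18442 genes. Each standard error (SE) was derived as the absolute log2 fold change divided by the square root of that test's F statistic. A gene was called when its adjusted p was under 0.05 and its log2 fold change was beyond 1 in either direction, which are the thresholds the study used. Lepr itself ran from 5.79 to 14.7 CPM in healthy and from 20.8 to 121 CPM in injured libraries, and its range in Lepr-cKO overlapped that of Lepr-ctrl in each pair of groups. By quantitative PCR the study reported less Lepr messenger RNA in injured Lepr-cKO endoneurium at the earlier time. No such reduction was seen in these counts. Injured nerves at 2 wpc ran from 31.7 to 68.2 CPM in Lepr-ctrl and from 31 to 121 CPM in Lepr-cKO. The reason for this difference was not tested. Reads were summed over all exons and the deleted exon was not counted by itself, so this count does not check the genotype. The injured nerve of Lepr-cKO mouse KO-126 at 2 wpc held 42257 CPM of 10 skeletal muscle markers, against at most 39.7 CPM in any other library, and counts of members that rest on it are also given without that mouse. Oligodendrocytes use many of the same myelin genes. Of their 5 markers, Mog reached at most 0.57 CPM, Opalin 0.191 and Olig2 0.845 in any library, with Olig2 at 0 in every healthy one, while Mobp reached 9.86 and Hapln2 6.7 CPM. The 5 together came to 4.99 to 11.7 CPM in healthy and 2.55 to 15.8 CPM in injured nerves, and their part in the members' levels was not tested.

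In healthy nerves the 8 members together took between 4.61% and 6.43% of all counts (21 libraries). Levels per kilobase of exon, with the exons of all annotated transcripts merged, set them in an order that both genotypes shared. This length was 8469 bases over 16 transcripts for Mbp and 2354 over 5 for Pmp22, and the order depends on it. In plain CPM the means of Mbp and Pmp22 in healthy Lepr-ctrl nerves at 2 wpc were 20436 and 24614. For Pllp, 54.2% of the exonic bases overlap an antisense gene. In Lepr-ctrl nerves at 2 wpc Pmp22 was highest, at 10456 ± 617 CPM per kilobase (SD, n = 5), followed by Mbp at 2413 and Prx at 1345. Mal followed at 1229, Cnp at 592, Cldn19 at 323, Mag at 120 and Pllp at 81.4 CPM per kilobase. The ranges of Prx and Mal overlapped, so these neighbours were not separated there, while every other step in the order was free of overlap in this group.

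Mouse-to-mouse spread in the healthy nerves was lowest for Mal at 2 wpc in Lepr-cKO mice, whose coefficient of variation was 2.11% (n = 6), and highest for Prx in Lepr-cKO mice at 4 wpc, where mouse KO-177 gave 5364 CPM and the other 4 mice 8552 to 9390. Genotype made no difference that could be detected in healthy nerves: log2 fold changes of Lepr-cKO over Lepr-ctrl lay between -0.03 and 0.11 at 2 wpc and between -0.17 and 0.01 at 4 wpc, with SEs of 0.2 to 0.29. By edgeR 0 of 8 members passed at either time (adjusted p = 1 for each), and 0 passed by DESeq2, while among all genes tested 0.00542% were called at each time. At an unadjusted p under 0.05 the counts were also 0 of 8, against 1.2% and 1.88% of all genes.

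Crush lowered 7 of the 8 genes in Lepr-ctrl nerves at 2 wpc, and Prx most of all. These 7 were called lower, against 14.3% of all genes tested, and all 7 had injured libraries entirely below the healthy ones (24.1% of all genes), Mag being the exception. Prx read 7102, 7620, 6796, 7156 and 8846 CPM in the 5 healthy nerves and 1368, 828, 316, 1341 and 1518 CPM in the 5 injured ones. Every injured nerve lay far below every healthy nerve. The fall was 6.99-fold (log2 fold change -2.80, SE 0.27, adjusted p = 4.79e-11).

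Among the compact myelin genes, Mbp read 17110, 22793, 18124, 19509 and 24643 CPM in healthy and 4931, 3208, 2216, 6340 and 6045 CPM in injured Lepr-ctrl nerves at 2 wpc. The groups were well apart, and Mbp fell 4.49-fold (log2 fold change -2.17, SE 0.26, adjusted p = 1.03e-08). Pmp22 went from 22665 to 26336 CPM in healthy nerves to 6428, 5493, 1526, 9513 and 8704 CPM in injured ones. It fell 3.89-fold (log2 fold change -1.96, SE 0.29, adjusted p = 3.67e-07), and the injured nerve of mouse WT-144 was the lowest by far.

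Both proteolipid genes fell as well. Mal ran from 3249 to 3571 CPM in healthy and from 269 to 1255 CPM in injured Lepr-ctrl nerves at 2 wpc (log2 fold change -2.07, SE 0.22, adjusted p = 5.89e-10). Pllp ran from 151 to 199 CPM and from 6.98 to 49.5 CPM (log2 fold change -2.32, SE 0.30, adjusted p = 4.06e-08). The Pllp count carries a limit, because 54.2% of its exonic bases overlap an antisense gene, Gm45767, and the libraries do not record strand. The same overlap was 5.4% for Prx, 4.2% for Cnp, 2.1% for Cldn19 and 0% for Mbp.

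The genes of the cytoplasmic channels and junctions fell less. Cnp ran from 2016 to 2449 CPM in healthy and from 223 to 1101 CPM in injured nerves (n = 5 and 5; log2 fold change -1.41, SE 0.24, adjusted p = 4.84e-06 by edgeR). Cldn19 went from 1375 ± 139 to 607 ± 318 CPM (SD, n = 5 and 5; log2 fold change -1.18, SE 0.25, adjusted p = 9.86e-05 by edgeR). Its injured nerves ran from 245 to 984 CPM, all below the lowest healthy nerve at 1253 CPM.

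Mag stood apart at 2 wpc. It read 464, 468, 452, 465 and 604 CPM in healthy Lepr-ctrl nerves and 542, 249, 153, 623 and 306 CPM in injured ones. The injured nerves of mice WT-123 and WT-147 were at or above most of the healthy nerves, so the groups overlapped. The log2 fold change was -0.39 (SE 0.23, adjusted p = 0.139). In Lepr-cKO mice at the same time Mag had a lowest, median and highest level of 403, 554 and 603 CPM in 6 healthy nerves and read 476, 306, 363, 217 and 313 CPM in 5 injured ones. There Mag fell by 0.65 on the log2 scale (SE 0.22, adjusted p = 0.0105), short of the 2-fold call, and again the groups overlapped.

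**Figure D1:**
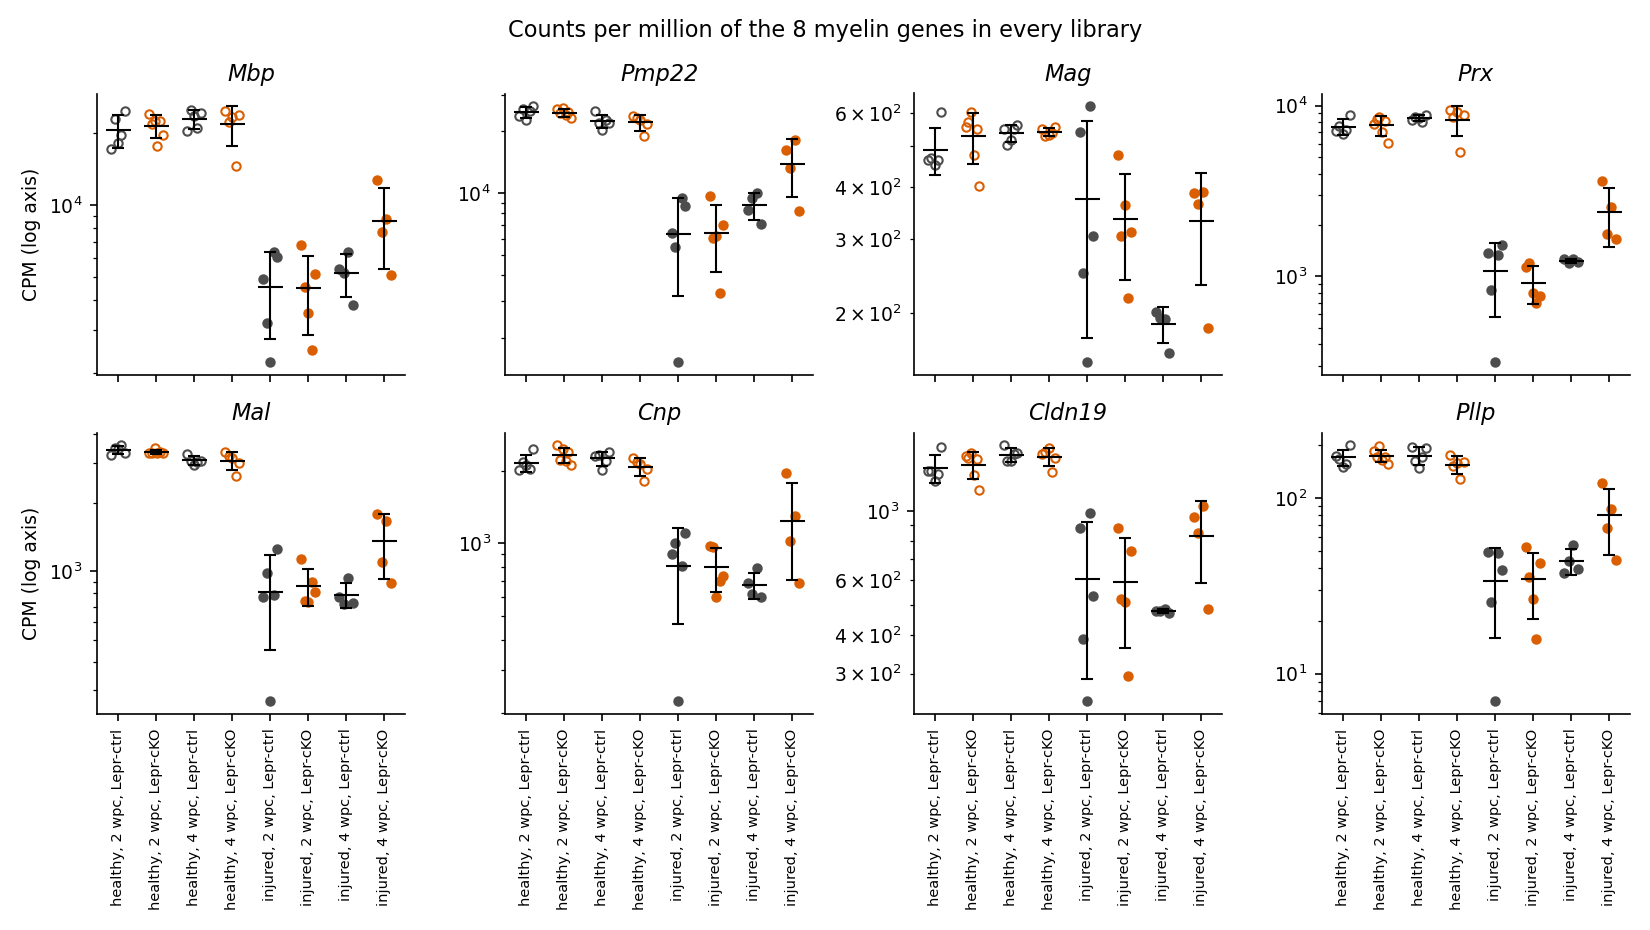
Level of each of the 8 genes in TMM-scaled CPM (log axis) in every library, by genotype, nerve and time; points are libraries and bars are group means. Injured nerves lie below healthy ones for Prx, Mbp, Pmp22, Mal, Cldn19 and Pllp in every comparison, whereas Mag overlaps at 2 wpc in both genotypes and Cnp overlaps in Lepr-cKO mice at 4 wpc.

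The other 7 members fell at 2 wpc in Lepr-cKO mice too. All 8 passed the adjusted p (65.1% of all genes did) and 7 were called lower (13.4% of all genes). Without both nerves of mouse KO-126, all 8 still passed. Prx had a lowest, median and highest level of 6009, 7974 and 8622 CPM in 6 healthy nerves and read 1139, 1196, 804, 695 and 763 CPM in the 5 injured ones. It fell 8.33-fold (log2 fold change -3.06, SE 0.27, adjusted p = 5.34e-12). Mbp fell by 2.24 on the log2 scale (SE 0.26, adjusted p = 3.41e-09), Pllp by 2.33 (SE 0.30, adjusted p = 2.32e-08), Mal by 1.95 (SE 0.21, adjusted p = 1.1e-09) and Pmp22 by 1.93 (SE 0.28, adjusted p = 2.82e-07). Cnp and Cldn19 were again the least reduced of the called genes, at log2 fold changes of -1.54 (SE 0.24, adjusted p = 7.19e-07) and -1.26 (SE 0.24, adjusted p = 2.66e-05).

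No genotype difference was detectable in injured nerves at 2 wpc. The log2 fold changes of Lepr-cKO over Lepr-ctrl were between -0.22 for Prx and 0.09 for Mal (SEs 0.21 to 0.29, adjusted p 0.99 or more by edgeR). Of the 8 members 0 passed by edgeR or by DESeq2 against 0.569% of all genes called, and 0 had an unadjusted p under 0.05, against 6.44% of all genes. Without mouse KO-126 the log2 fold changes were -0.33 to 0.15, and 0 passed. All 8 had overlapping groups.

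At 4 wpc the members of Lepr-ctrl nerves were still low, and Mag had joined them. All 8 were called lower (15.9% of all genes tested), and in all 8 every injured nerve lay below every healthy one (27.4% of all genes). Prx read 8201, 8573, 8479, 8002 and 8870 CPM in healthy and 1260, 1201, 1271 and 1210 CPM in injured nerves. The injured mice were close to one another, and the fall was 6.82-fold (log2 fold change -2.77, SE 0.29, adjusted p = 5.49e-10). Mag read 549, 505, 519, 550 and 563 CPM in healthy and 201, 195, 194 and 161 CPM in injured nerves. It fell 2.86-fold (log2 fold change -1.52, SE 0.25, adjusted p = 3.96e-06), and its injured nerves were all under the median of the injured nerves at 2 wpc, 306 CPM.

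After Prx, Mbp was the most reduced of the 8 in Lepr-ctrl nerves at 4 wpc. It read 5386, 5182, 6378 and 3837 CPM in the injured nerves, against 20336 to 24787 CPM in healthy ones (log2 fold change -2.13, SE 0.29, adjusted p = 7.97e-08). Pmp22 was the least reduced, with 8330, 9511, 9978 and 7101 CPM against 20181 to 24886 CPM (log2 fold change -1.35, SE 0.30, adjusted p = 0.000236). The remaining members lay between them. Pllp fell by 1.99 on the log2 scale (SE 0.33, adjusted p = 2.66e-06), Mal by 1.97 (SE 0.24, adjusted p = 1.02e-08), Cnp by 1.74 (SE 0.26, adjusted p = 7.23e-07) and Cldn19 by 1.67 (SE 0.27, adjusted p = 2.34e-06). The 4 injured values of Cldn19 were within 470 to 484 CPM.

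The change in Mag between the times was large enough to be called. Its log2 fold change to injury in Lepr-ctrl mice was lower at 4 wpc than at 2 wpc by 1.13 (SE 0.34, adjusted p = 0.0305), a contrast in which 2.81% of all genes were called lower. This call rested on single libraries, because 0 members were called without the injured nerve of mouse WT-123 or of mouse WT-147 at 2 wpc, or without that of mouse WT-178 at 4 wpc, and 0 were called when Lepr-ctrl groups alone were fitted. For the other 7 genes the difference lay between -0.49 and 0.61, none passed, and the sign for Mbp, Prx and Mal turned under several of the alternatives. In Lepr-cKO mice the response of Mag differed by -0.05 (SE 0.33, adjusted p = 0.969).

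Injured Lepr-cKO nerves at 4 wpc had higher levels of the members than injured Lepr-ctrl nerves, in size between 1.59-fold and 1.93-fold, but none of these differences passed the adjusted test. Prx read 3610, 1766, 2534 and 1652 CPM in Lepr-cKO, all above the 4 Lepr-ctrl values (highest 1271 CPM). It was the member with the largest difference (log2 fold change 0.95, SE 0.28, adjusted p = 0.0682) and the only one whose groups did not overlap, which held for 2.92% of all genes in that direction. Mag read 387, 365, 390 and 184 CPM in Lepr-cKO and 201, 195, 194 and 161 CPM in Lepr-ctrl. Here 3 of the 4 Lepr-cKO mice were above every Lepr-ctrl mouse, and mouse KO-177 lay within the Lepr-ctrl range (log2 fold change 0.82, SE 0.26, adjusted p = 0.0811).

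The same mouse KO-177 was lowest of the Lepr-cKO injured nerves for all 8 genes. Mbp read 12735, 7736, 8720 and 5111 CPM in mice KO-169, KO-175, KO-176 and KO-177 (log2 fold change 0.72 over Lepr-ctrl, SE 0.28, adjusted p = 0.148). Pmp22 read 16125, 13171, 18157 and 8214 CPM (0.67, SE 0.31, adjusted p = 0.22). Cnp read 1953, 1026, 1295 and 685 CPM (0.88, SE 0.27, adjusted p = 0.0723). The first 3 mice lay above every Lepr-ctrl mouse for each of these genes, and mouse KO-177 within the Lepr-ctrl range. Mal (0.79, SE 0.24, adjusted p = 0.0723), Cldn19 (0.81, SE 0.27, adjusted p = 0.0969) and Pllp (0.87, SE 0.33, adjusted p = 0.133) differed to a like degree.

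By edgeR 0 of the 8 were called in that comparison, against 0.45% of all genes, and 0 passed the adjusted p alone, against 1.31% of all genes. All 8 had an unadjusted p under 0.05 (0.00179 to 0.0373), as did 19.9% of all genes. The members vary together between libraries of a group (median Pearson's r over pairs 0.827 with group means taken out). Counts of members beside shares of all genes are therefore not separate results, here and in the other comparisons. By DESeq2 the adjusted p was under 0.05 for 3 members, Prx (0.0303), Mal (0.0365) and Cnp (0.0386), with none past 2-fold. Without the injured nerve of mouse KO-177, edgeR called 4 of the 8, the log2 fold changes were 0.84 to 1.07 and the adjusted p-values 0.0101 to 0.0738. Without that of mouse KO-169 they were 0.47 to 0.74, with adjusted p-values of 0.268 to 0.475. For DESeq2 and for the fits with a nerve left out, the share of all genes called was not computed.

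Within Lepr-cKO mice 7 of the 8 genes were still lower in injured nerves at 4 wpc. These 7, all but Pmp22, fell by the adjusted p (55.3% of all genes passed), and 3, Prx, Mbp and Mal, were called (10.8% of all genes were called lower). Without the injured nerve of mouse KO-169, 5 were called, and the share of all genes was not computed there. Prx fell 3.46-fold (log2 fold change -1.79, SE 0.28, adjusted p = 1.92e-06), from 9390, 8552, 9152, 5364 and 8872 CPM in healthy nerves. Pmp22 gave a log2 fold change of -0.66 (SE 0.30, adjusted p = 0.0582), and -0.72 (adjusted p = 0.0105) when each mouse was kept as a replicate block. Cnp fell by 0.74 (SE 0.25, adjusted p = 0.0133), with the injured nerve of mouse KO-169 at 1953 CPM inside the healthy range of 1808 to 2256 CPM.

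Mag fell by 0.71 (SE 0.25, adjusted p = 0.0154), Cldn19 by 0.84 (SE 0.26, adjusted p = 0.00693) and Pllp by 0.95 (SE 0.31, adjusted p = 0.00978). Without mouse KO-177's injured nerve, Mag (-0.52) and Cnp (-0.56) no longer passed.

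The difference of the injury response between genotypes was tested directly. At 4 wpc it was 0.69 to 1.04 on the log2 scale over the 8 members, each less reduced in Lepr-cKO (adjusted p 0.384 to 0.543 by edgeR). Of the 8, 0 passed by edgeR or DESeq2, and 7 had an unadjusted p under 0.05, against 10.9% of all genes, while 0% of all genes were called. At 2 wpc the difference was -0.27 to 0.12, with 0 of 8 passing by either tool and 0% of all genes called, and 0 of 8 had an unadjusted p under 0.05 (4.32% of all genes).

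**Figure D2:**
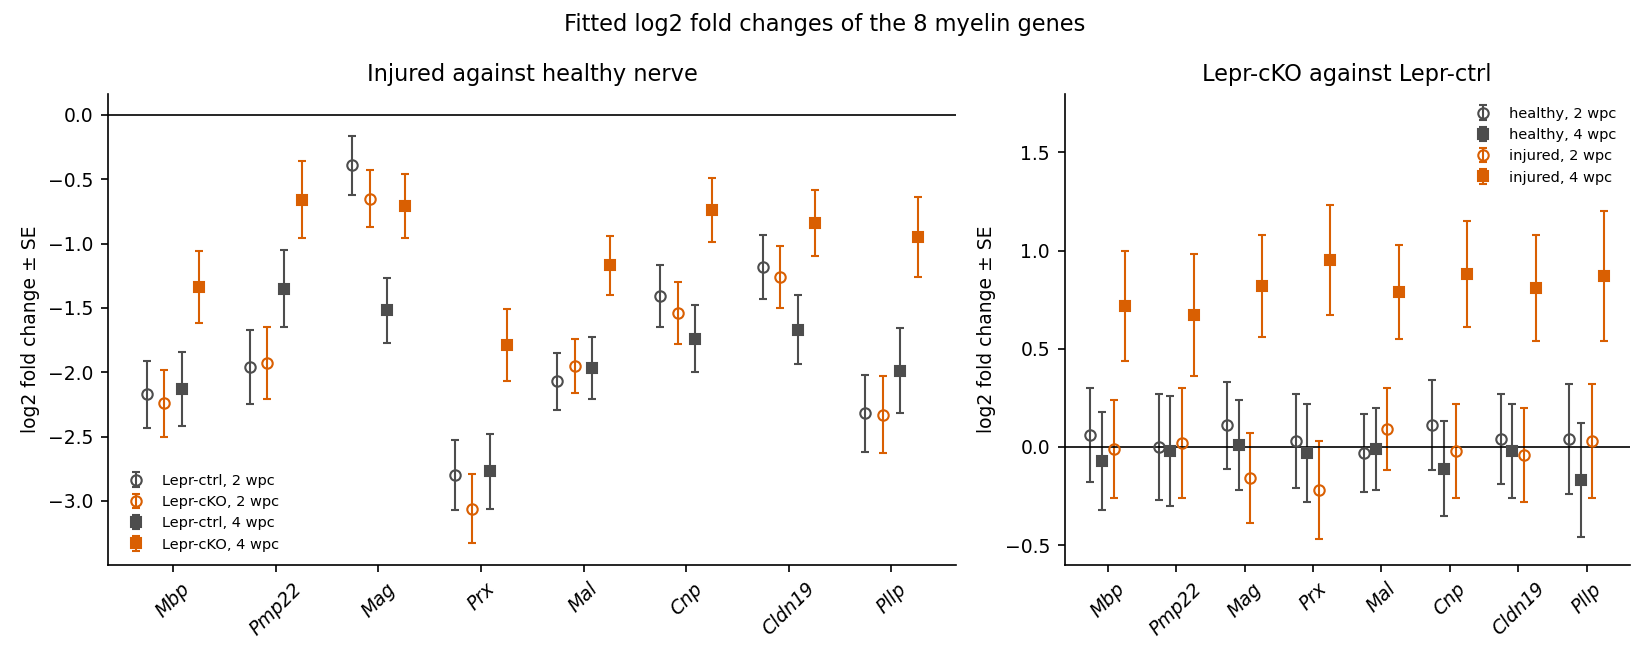
Log2 fold change of each gene from edgeR, with bars of 1 SE, for injured over healthy nerves in each genotype and time and for Lepr-cKO over Lepr-ctrl in each nerve and time; the line at 0 marks no change. Injury estimates for Lepr-cKO at 4 wpc (-1.79 to -0.66) lie nearer 0 than those of Lepr-ctrl (-2.77 to -1.35), and genotype estimates are above 0 for all 8 genes in injured nerves at 4 wpc.

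In Lepr-cKO mice the log2 fold change to injury was estimated to be nearer 0 at 4 wpc than at 2 wpc, by 1.27 for Prx (SE 0.36, adjusted p = 0.0528), 1.38 for Pllp (SE 0.41, adjusted p = 0.0724) and 1.27 for Pmp22 (SE 0.40, adjusted p = 0.0853). By edgeR 0 members passed, 6 had an unadjusted p under 0.05 (14.6% of all genes), and 1.42% of all genes were called. The same 3 genes were called by DESeq2 and also when each mouse was kept as a replicate block, where the differences were 1.26 for Prx, 1.41 for Pllp and 1.29 for Pmp22. Without both nerves of mouse KO-126 only Prx was called (adjusted p = 0.0484). The share of all genes called was not computed under these alternatives.

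Both nerves of a mouse can be set against each other directly. This takes out only what the nerves of a mouse share, and the ratio also carries the spread of the healthy nerve. Deviations of both nerves from their group means correlated with r from -0.116 to 0.567 over the 17 mice. In all 17 mice with both nerves the injured nerve was lower for 7 of the 8 genes. The exception was Mag, which was lower in 15 of 17 and stood at 116% and 103% of the contralateral nerve in Lepr-ctrl mice WT-123 and WT-147 at 2 wpc. The injured nerve of Lepr-ctrl mouse WT-144 at 2 wpc, lowest of its group for all 8 genes, had no contralateral library and is absent here. At 2 wpc Prx in the injured nerve was 16.6% ± 3.86 of the contralateral level in Lepr-ctrl mice (SD, n = 4) and 12.2% ± 2.42 for Lepr-cKO (n = 5). Mag was at 85.0% ± 29.2 and 64.4% ± 16.7. In each of these 9 mice Mag retained more of its healthy level than Cldn19, the next gene in the order.

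At 4 wpc Prx was at 14.7, 14.2, 15.9 and 13.6% in the 4 Lepr-ctrl mice and at 38.4, 20.7, 27.7 and 30.8% in the 4 Lepr-cKO mice. The genotypes were apart for Prx, the lowest Lepr-cKO mouse standing above the highest Lepr-ctrl mouse. Mbp was at 22.5% ± 6.04 in Lepr-ctrl and at 39.8% ± 7.89 in Lepr-cKO mice (SD, n = 4 and 4), and was likewise apart. Pmp22 was at 40.4% ± 6.5 and 62.2% ± 15.8, and Mag at 35.3% ± 4.88 and 61.7% ± 18.5 (n = 4 and 4); for these genes mouse KO-177, at 43.5% and 34.1%, overlapped the Lepr-ctrl mice.

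Mouse by mouse, 6 of the 8 genes (Prx, Mbp, Mal, Cnp, Cldn19 and Pllp) were apart at 4 wpc with Lepr-cKO higher, which held for 4.15% of all genes, with 3.25% apart in the opposite direction. The values of mouse KO-177 had a low denominator, since its healthy nerve was the lowest of its group for every member but Mag. For Mbp, Mal, Cnp, Cldn19 and Pllp its injured nerve overlapped the Lepr-ctrl nerves in CPM. These genes were therefore apart only relative to the healthy nerve. Without mouse KO-177, 8 of 8 genes were apart, against 10.5% of all genes. With CPM of the plain totals in place of TMM, 5 of the 8 were, against 5.29% of all genes. At 2 wpc 0 of the 8 were apart in either direction (0.35% of all genes higher, 0.665% lower).

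**Figure D3:**
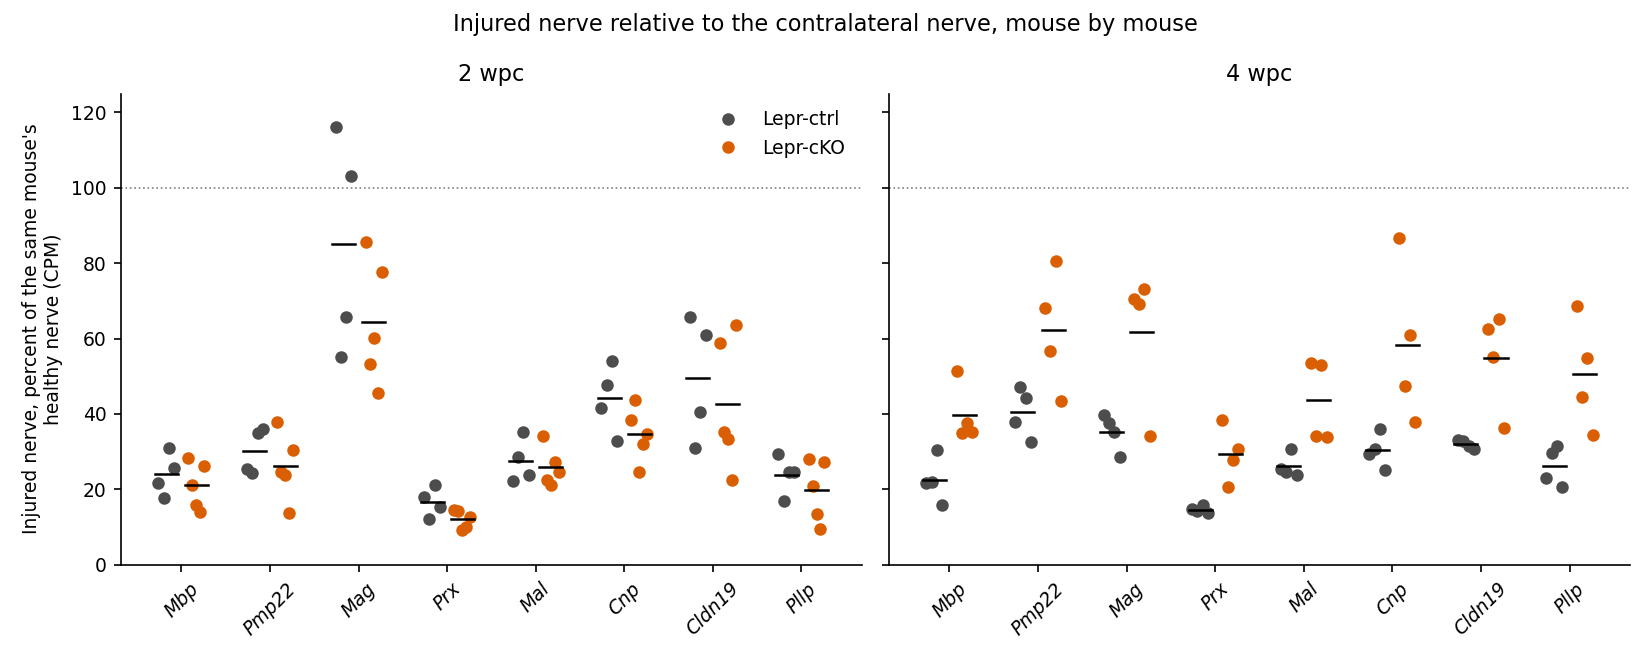
Level in the injured nerve as a percent of the contralateral nerve of the same mouse, by gene, genotype and time (TMM-scaled CPM; 1 point a mouse, bars are means; 4 Lepr-ctrl and 5 Lepr-cKO mice at 2 wpc, 4 and 4 at 4 wpc). At 4 wpc the Lepr-cKO mice lie above the Lepr-ctrl mice without overlap for 6 of 8 genes, and Mag at 2 wpc is the only gene with mice above 100%.

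Since the members were reduced to different degrees, their proportions changed. Per kilobase, the order in injured Lepr-ctrl nerves at 2 wpc was Pmp22 at 2690, Mbp at 537, Mal at 293, Cnp at 222, Prx at 193, Cldn19 at 142, Mag at 92.0 and Pllp at 16.3 CPM. Prx, which stood ahead of Mal in healthy nerves, had moved behind Mal and Cnp. All neighbours in that order overlapped except Mag and Pllp. At 4 wpc Prx in injured Lepr-ctrl nerves was at 221 CPM per kilobase, between Mal at 283 and Cnp at 185. In injured Lepr-cKO nerves the same 3 levels were 489 for Mal, 428 for Prx and 341 for Cnp.

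**Figure D4:**
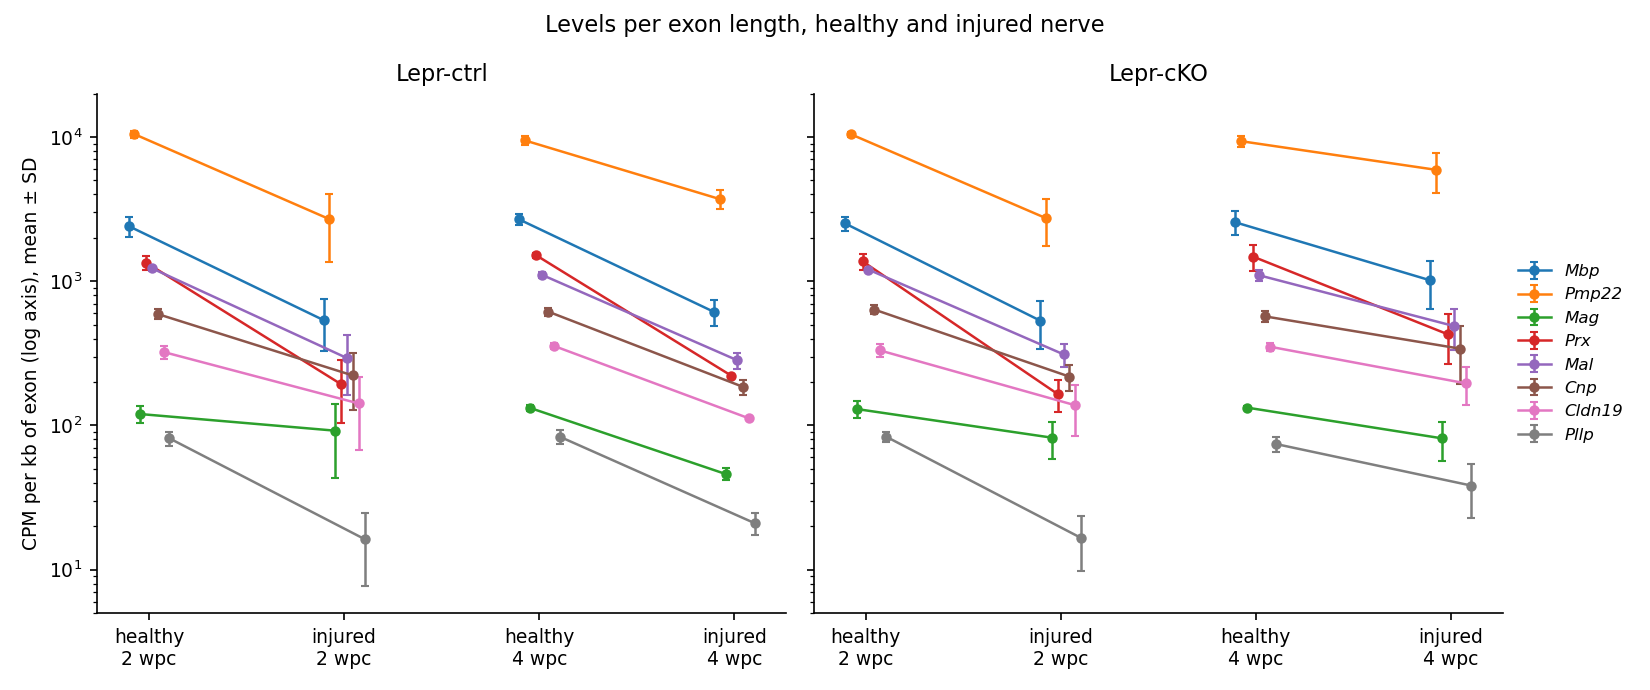
Mean level of each gene in CPM per kilobase of exon (log axis, bars are the SD over libraries) in healthy and injured nerves at each time, by genotype. The exons of all annotated transcripts were merged, and heights of different genes depend on that length. Pmp22 stays highest and Pllp lowest, and the line of Prx crosses that of Mal between healthy and injured nerves.

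The ratio of Mag to Prx, both per kilobase, differed between nerves and times. It was 0.0894 ± 0.00347 (SD, n = 5) in healthy Lepr-ctrl nerves at 2 wpc and 0.506 ± 0.162 (n = 5) in injured ones. It was 0.506 ± 0.113 (n = 5) in injured Lepr-cKO nerves at 2 wpc. At 4 wpc it was lower, at 0.208 ± 0.0184 (n = 4) in Lepr-ctrl and 0.198 ± 0.0636 (n = 4) in Lepr-cKO. The ranges of the genotypes overlapped in injured nerves at each time. Pmp22 was also higher relative to Prx, from a ratio of 6.29 in healthy to 16.7 in injured Lepr-ctrl nerves at 4 wpc, and from 6.47 to 14.3 in Lepr-cKO nerves. These ratios describe unequal change and were not tested.

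In a bulk library fewer myelinating cells and less message per cell cannot be told apart. Markers that Schwann cells carry whether or not they make myelin (S100b, Sox10, Erbb3, Cdh19 and Foxd3) were on average also lower in injured nerves, by less than the members. In Lepr-ctrl nerves 3 of these 5 fell at 2 wpc and 5 of 5 at 4 wpc, and in Lepr-cKO nerves 3 fell at each time. The mean log2 CPM of the members exceeded that of these markers by 2.62 in healthy Lepr-ctrl nerves at 2 wpc and by 1.44 ± 0.47 in injured ones (SD, n = 5). At 4 wpc the excess was 2.51 in healthy and 2.11 ± 0.11 in injured Lepr-ctrl nerves, and 2.48 and 2.29 ± 0.15 in Lepr-cKO nerves (n = 4 injured each). Relative to these markers, the mean of the members was lower in injured nerves in every pair of groups, a description with no test. Between the genotypes in injured nerves at 4 wpc, the mean log2 CPM of these markers was 7.46 ± 0.25 in Lepr-ctrl and 8.02 ± 0.60 in Lepr-cKO (SD, n = 4 and 4). Their median log2 fold change there was 0.60, from 0.30 to 1.05, beside 0.81 for the members. Of the 5, 0 passed by edgeR and 4 had an unadjusted p under 0.05, and their part in the members' difference was not tested.

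Other contents of the nerve also differed between these groups. The summed level of 10 macrophage markers was 113 to 395 CPM in healthy and 784 to 3792 CPM in injured nerves. At 4 wpc it was 1722 to 3792 CPM in injured Lepr-ctrl and 1200 to 2031 CPM in injured Lepr-cKO nerves, and 0 of the 10 markers passed between the genotypes (5 of 10 at an unadjusted p under 0.05 by edgeR, all with lower estimates). The part of macrophage content in the members' levels was not tested.

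Mitochondrially encoded genes took 1.92 to 4.25% of counts in healthy and 2.95 to 33.0% in injured libraries. The injured Lepr-ctrl nerve of mouse WT-144 and the injured Lepr-cKO nerve of mouse KO-135 at 2 wpc had the highest mitochondrial shares, 33.0% and 29.7%, and the lowest shares of the 8 members, 0.46% and 0.775%. At 4 wpc the mitochondrial share was 17.2 to 21.6% in injured Lepr-ctrl nerves, and 2.95, 12.6, 9.84 and 20.2% in the Lepr-cKO mice KO-169, KO-175, KO-176 and KO-177, whose members took 3.96, 2.81, 3.68 and 1.76% of counts. The Lepr-cKO mouse nearest to Lepr-ctrl in the one measure, mouse KO-177, was also nearest in the other. With the mitochondrially encoded genes left out of the counts, the genotype differences in injured nerves at 4 wpc were 0.67 to 0.95 on the log2 scale, the same range as with them. This step removes only those genes and does not compare libraries of like mitochondrial share. The part of that share in the members' difference was not tested.

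**Figure D5:**
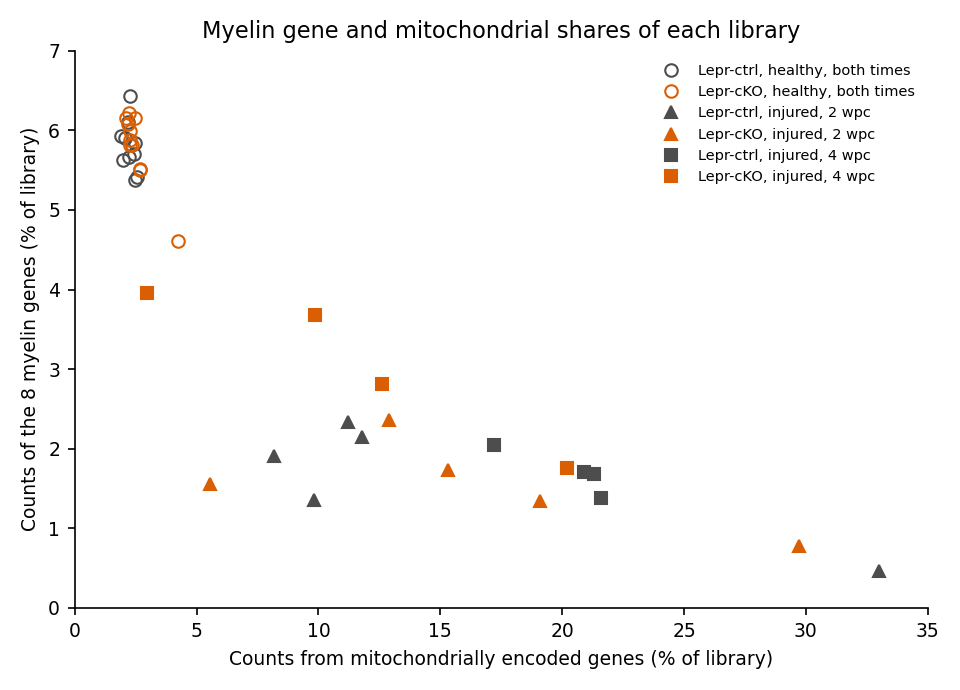
Share of all counts taken by the 8 members against the share taken by mitochondrially encoded genes, both in percent, with 1 point for each of the 39 libraries, by genotype, nerve and time. Healthy nerves sit at 4.61 to 6.43% members and injured nerves at 0.46 to 3.96%, and the 2 injured libraries with the highest mitochondrial share have the lowest share of members.

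Other genes of the myelin sheath gave a setting for the 8. Of 15 further sheath genes, 12 fell in Lepr-ctrl nerves at 2 wpc and 14 at 4 wpc, and 12 and 9 fell in Lepr-cKO nerves. Their median log2 fold changes were -1.37, -1.73, -1.32 and -0.75 in that order, beside -2.01, -1.85, -1.94 and -0.90 for the 8 members and 0.08, 0.02, 0.10 and 0.06 for all genes tested. Drp2, which encodes the partner of periaxin, was among the most reduced, with log2 fold changes of -3.78 at 2 wpc (adjusted p = 2.88e-14) and -2.51 at 4 wpc (adjusted p = 8.64e-10) in Lepr-ctrl nerves. Cdh1, the adhesion protein of the same-cell junctions, fell by 2.65 and 2.63 on the log2 scale (adjusted p = 6.33e-10 and 5.38e-09).

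Gjc3, a connexin gene, gave a log2 fold change of 0.35 at 2 wpc (adjusted p = 0.158) in Lepr-ctrl nerves. In injured nerves at 4 wpc 2 of the 15 were higher in Lepr-cKO, both past 2-fold: Gjc3 (log2 fold change 1.01, adjusted p = 0.0366) and Cadm4, an adhesion gene of the Schwann cell surface that faces the axon (1.06, adjusted p = 0.0493), both named after their values were seen. The median of the 15 was 0.65, beside 0.81 for the 8 members and 0.03 for all genes.

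The counts of genes that passed the adjusted p are read here against those of all genes tested. In Lepr-ctrl nerves 30.2% of all genes fell and 33.7% rose at 2 wpc, and 31.2% fell and 32.4% rose at 4 wpc. In Lepr-cKO nerves 29.2% fell and 35.9% rose at 2 wpc, and 25.8% fell and 29.6% rose at 4 wpc. Of 10 regulators that promote myelination, 6 fell and 3 rose in Lepr-ctrl nerves at 2 wpc, and 5 fell and 3 rose in Lepr-cKO nerves. Egr2 fell by 1.59 on the log2 scale at 2 wpc (adjusted p = 6.06e-07), while Pou3f1, a factor of the promyelinating stage, rose by 1.51 (adjusted p = 0.000338). At 4 wpc 6 fell and 1 rose in Lepr-ctrl and 6 fell and 2 rose in Lepr-cKO nerves, and 2 of the 10, Adgrg6 (log2 fold change 0.71, adjusted p = 0.0297) and Tead1 (0.62, adjusted p = 0.0415), were higher in injured Lepr-cKO than in injured Lepr-ctrl nerves (1.02% of all genes were), both named after their values were seen. Of 5 measured regulators that oppose myelin genes, 3 rose in Lepr-ctrl nerves at 2 wpc. Id2, an inhibitor of basic helix-loop-helix factors, rose most, by 3.48 (adjusted p = 1.99e-15), and Sox2 rose by 1.42 (adjusted p = 4.65e-06). Repair-state genes moved mostly up, with 7 of 10 higher and 2 lower at 2 wpc in Lepr-ctrl nerves, led by Olig1 at a log2 fold change of 8.04 (adjusted p = 2.16e-12).

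The 8 members varied together across the 39 libraries. Pearson's r of log2 CPM over the 28 pairs of members had a median of 0.948 and ran from 0.765 to 0.986, values that include the step between healthy and injured nerves common to the libraries. After the group means were taken out the median was 0.827 and the range 0.53 to 0.941. Against the mean of the other 7, Mag had the lowest r over the libraries as they stand, 0.824, and Pllp the highest, 0.981. With the group means taken out Mal had the lowest, 0.779, below Mag at 0.827, and Pllp again the highest, 0.965.

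Of 18419 other genes with a symbol, those whose level was most like the mean of the 8 members over the 39 libraries were Elovl1 (r = 0.992), an elongase of very-long-chain fatty acids, Cryab (0.986), a small heat shock protein, Prss12 (0.985), Fut8 (0.984), a fucosyltransferase, and Fat1 (0.984). With group means taken out they were Elovl1 (0.967), Prss12 (0.954), Ldhb (0.952), a lactate dehydrogenase subunit, Fut8 (0.95) and Gjb1 (0.95), the connexin of myelin incisures and paranodes. Elovl1, Prss12 and Fut8 were in both lists. These are descriptions over libraries that share tissue and sequencing depth, and no test was attached to them.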

How the data were processed

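Endoneurial RNA of 39 sciatic nerves was sequenced by the authors with an unstranded kit (TruSeq RNA Sample Prep Kit v2) as single reads of 50 bases. By the submitters' processing notes the tools were bcl2fastq 2.20.0.422, STAR 2.5 and featureCounts 1.5.0-p1, with GRCm38, and the deposited values are raw read counts per Ensembl gene, 1 table a library. Names came from a reference table that matched 99.9% of the genes tested. Groups were taken from the labels, and mice are named by the number in their sample titles, after KO for Lepr-cKO and WT for Lepr-ctrl. The study's methods give fewer mice per group than most groups hold here, and all 39 libraries were used.

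Counts were tested in R 4.3.3 with edgeR 4.0.16 (glmQLFit and glmQLFTest, TMM, filterByExpr by group at its settings of 10 counts and 15 in total), with the 8 groups as coefficients and Benjamini-Hochberg adjustment over 18442 genes. Calls needed an adjusted p below 0.05 together with a change of more than 1 on the log2 scale. The tests were checked on simulated counts. The alternatives were DESeq2 1.42.0 and its size factors in edgeR, a term for sex (read from Xist and Ddx3y), a stricter filter and no filter, the compared groups alone, mitochondrially encoded genes left out, each replicate left out in turn, and each mouse as a replicate block. The block comes from the labels, which number the mice: deviations from the group means of both nerves of a mouse correlated with r from -0.116 to 0.567 over 5000 genes, above 0.1 in 14 of 17 mice, and Xist and Ddx3y gave the same sex for both nerves in 17 of 17. No pair of libraries of the same group agreed within sampling noise, and pairs across groups were not checked.

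The rule was to name all 8 members in each comparison, but differences of which no member passed are mostly given by their range, and up to 2 genes of each other list in each direction; genes outside this rule are marked as such, and a gene of the myelin sheath list that it names is not reported here singly. The members and gene lists were chosen with earlier results of these data known. Sequences are RefSeq promoters of GRCm38.p6. Reads of overlapping or near-identical genes cannot be told apart.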

Additional observations from a re-analysis of the deposited data

Results flagged for a closer look

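In 64 groups of libraries (8 genes in 8 groups), 8 held a library farther from the rest than Dixon's 95% limit. Chance gives about 1 in 20 for a group taken alone. The 8 genes vary together across the same libraries, so the 64 are not independent and their count cannot be set against that rate. The healthy nerve of Lepr-cKO mouse KO-177 at 4 wpc was lowest for Mbp (14547 CPM) and for Prx (5364 CPM), and the injured nerve of the same mouse was lowest of its group for Mag (184 CPM). That healthy nerve had the highest mitochondrial share (4.25%) and the lowest share of members (4.61%) of the healthy libraries; the part of these in the levels was not tested. The healthy nerve of Lepr-ctrl mouse WT-147 at 2 wpc was highest for Mag (604 CPM) and Cldn19 (1614 CPM). The injured Lepr-ctrl nerve of mouse WT-144 at 2 wpc was lowest for Cnp (223 CPM), and the injured Lepr-ctrl nerve of mouse WT-178 at 4 wpc was lowest for Mag (161 CPM). The healthy Lepr-cKO nerve of mouse KO-128 at 2 wpc was highest for Mal (3485 CPM).

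The injury response of Mag in Lepr-ctrl mice differed between 4 wpc and 2 wpc by -1.13 on the log2 scale in the test of the difference itself.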

How the results depend on the processing

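Counts of members called kept to within 1.5 times their first value under every alternative in the injury comparisons of Lepr-ctrl at 2 wpc (6 to 7 with 1 replicate left out), Lepr-cKO at 2 wpc (7) and Lepr-ctrl at 4 wpc (8), and stayed at 0 for genotype in healthy nerves and in injured nerves at 2 wpc and for the genotype difference in injury response at both times. Injury in Lepr-cKO mice at 4 wpc gave 7 at the adjusted p alone, in place of 3, and 3 to 5 with 1 replicate left out. Genotype in injured nerves at 4 wpc gave 0 to 4 with 1 replicate left out, and with the compared groups alone its adjusted p-values were 0.315 to 0.398. The difference of the injury response between the times in Lepr-ctrl gave 0, in place of 1, with the compared groups only, and 0 to 1 with 1 replicate left out. In Lepr-cKO it gave, in place of 0, 3 with DESeq2, 3 with the replicate block, 1 with at least 10 counts in every library, 1 without mouse KO-126 (an alternative chosen after seeing the data) and 0 to 3 with 1 replicate left out. The members apart mouse by mouse at 4 wpc numbered 6 to 8 with 1 mouse left out and 5 with plain totals, and 0 at 2 wpc under both, alternatives that were also chosen after seeing the data.

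Among members named with their own estimate, direction turned in differences between the times, all close to 0. In Lepr-ctrl the replicate block gave -0.10 for Mbp, -0.16 for Prx and -0.05 for Mal, with -0.14 to 0.17 for Mbp, -0.20 to 0.17 for Prx and -0.12 to 0.29 for Mal with 1 replicate left out. For Mag in Lepr-cKO it was -0.17 to 0.12 with 1 replicate left out. It turned as well where genotype estimates were near 0 and are given as a range: over the alternatives, the members estimated higher in Lepr-cKO numbered 4 to 7 (first 6) in healthy nerves at 2 wpc, 0 to 6 (first 1, and 6 without mouse KO-177) at 4 wpc, 0 to 7 (first 3, with 7 without mouse WT-123 and 0 without mouse WT-144 or KO-125) in injured nerves at 2 wpc, and 0 to 5 (first 2) for the genotype difference in injury response at 2 wpc. Beside the calls given above, the replicate block changed no other. Shares over all genes belong to the first fit and to the mouse-by-mouse comparison, and were not computed for the other alternatives. For these changes the cause was not tested. Groups of 4 to 6 mice and SEs of 0.2 to 0.44 on the log2 scale limit what could be detected.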
